A study of Mus musculus with 2 samples.

Results

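The genes described here are the mouse MHC class II genes H2-Aa, H2-Ab1, H2-Eb1, H2-DMa, H2-DMb1, H2-DMb2, H2-Oa and H2-Ob, the invariant chain gene Cd74 and the class II transactivator gene Ciita. They were chosen by name, as all non-control array probes whose RefSeq accession maps to one of these 10 symbols. This gave 12 probes among 55681 non-control probes, with 2 probes each for H2-Ab1 and H2-Ob and 1 for every other gene. Total RNA of lung epithelial cells was labelled with Cy3 and hybridised to Agilent 1-colour oligonucleotide arrays, 1 array for cells labelled Mob1DKO and 1 for wild-type (WT) cells. Strain and age are the same for both, C57BL/6 and 10 weeks. Mob1DKO is not spelled out by the labels and is taken here to mean the double knockout of Mob1a and Mob1b, adaptors of the Hippo pathway kinases. The labels also do not name the alleles, the promoter of any Cre, the sex or number of the animals, or whether RNA was pooled. With 1 array per group no test between the groups is possible, so every difference below is given with its size and a technical error, and no p-value.

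MHC class II molecules are pairs of an alpha and a beta chain that carry peptides to the cell surface, where CD4+ T cells read them. The invariant chain escorts new pairs through the cell and blocks their groove, H2-DM removes its last fragment and loads peptide, and H2-DO holds H2-DM back. Ciita switches the class II genes on together, without binding DNA itself, through proteins that sit on a promoter element with an X box and a Y box. In the lung, class II is known from dendritic cells, macrophages and B cells, and also from alveolar type 2 epithelial cells.

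The promoter element is shown here because Ciita acts through the proteins that sit on it. The table of RefSeq promoters on build GRCm38.p6 held 7 of the 10 genes, all on chromosome 17. It was searched over the 250 bases before each start, on both strands, for the Y box core TGATTGG and for AACNNATGA, the end of the X box; both strings were chosen after the promoters were read and do not overlap each other. Each window below is 60 bases long, 5′ to 3′ on the gene's strand, with matches in capitals.
H2-Aa, chr17:34287862-34287921, minus strand: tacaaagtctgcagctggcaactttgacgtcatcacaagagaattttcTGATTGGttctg
H2-Eb1, chr17:34305758-34305817, plus strand: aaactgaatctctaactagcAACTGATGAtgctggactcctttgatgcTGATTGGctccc
H2-DMb1, chr17:34153080-34153139, plus strand: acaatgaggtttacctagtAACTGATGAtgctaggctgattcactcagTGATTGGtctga
H2-DMb2, chr17:34145109-34145168, plus strand: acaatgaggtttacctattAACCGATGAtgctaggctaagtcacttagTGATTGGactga
H2-Ob, chr17:34238798-34238857, plus strand: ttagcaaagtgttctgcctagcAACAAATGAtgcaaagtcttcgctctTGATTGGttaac
H2-Oa, chr17:34092286-34092345, plus strand: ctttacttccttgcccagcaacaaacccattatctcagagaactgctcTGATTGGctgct

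TGATTGG was in the promoters of 6 of the 7 genes and in 7.23% of all 32851 promoters in the table. AACNNATGA was in 4 of the 7, H2-Eb1, H2-DMb1, H2-DMb2 and H2-Ob, and in 2.49% of all promoters. Both strings in this order within 60 bases, on the gene's strand, were in these 4 promoters and in 10 of all 32851, with 17 to 20 bases between them in the 4 genes. H2-DMb1 and H2-DMb2, neighbouring copies of one gene, had nearly the same window and the same 20 bases between the strings. Neither annotated start of H2-DMa held either string. A match is a description of the sequence, and genes that hold both strings, such as H2-Eb1 and H2-DMb1, differed in their values on the arrays.

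On the arrays the classical A chains, the invariant chain and both main H2-DM genes were higher in the Mob1DKO sample. The classical beta chain H2-Eb1 had about the same level in both. Ciita differed by 0.08, but its probe was too faint to set a difference such as that of Cd74 apart from 0. The differences ran from 0.01 for H2-Eb1 to 1.02 for H2-DMb1 on the log2 scale (Mob1DKO minus WT) over the 7 genes measured on both arrays. Their median was 0.53, and the median of all 13866 genes measured on both arrays was 0.01, with an interquartile range from −0.18 to 0.19. A gene counts as measured on an array where the scanner software flags its probe as well above background. Levels are log2 of the processed signal after subtracting that array's 75th percentile, which was 291 for Mob1DKO and 155 for WT. A level of 0 is thus the 75th percentile, and levels of different probes are not compared, because probes differ in how brightly they bind.

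Of the 12 probes, 8 were well above background on both arrays, 2 on the Mob1DKO array only and 2 on neither, and no member spot was saturated. All 12 probes were printed at a single spot. A pair of errors is given for a difference. The first is the SD of single-spot differences, from probes printed at 10 spots: 0.061 at mean levels of 3 or more, 0.098 at levels from 0 to 3, and 0.36 for measured probes under 0. The second is the scanner software's own error of both spots, about 0.20 for every member measured on both arrays except Ciita (0.22). Neither covers how much animals or RNA preparations vary, which these arrays cannot give.

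**Figure D1:**
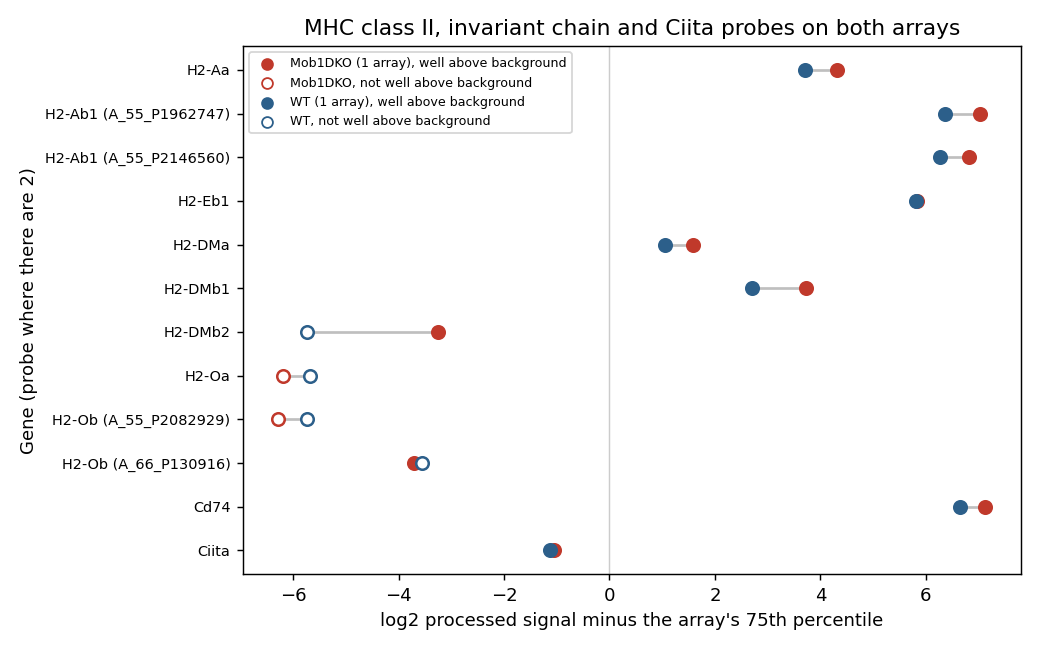
Level of each member probe on both arrays, as log2 processed signal minus the array's 75th percentile, with 1 point per array; open points are not well above background. H2-Aa, both H2-Ab1 probes, H2-DMa, H2-DMb1 and Cd74 lie further right on the Mob1DKO array, whereas the points of H2-Eb1 and Ciita overlap.

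H2-Aa and H2-Ab1 encode the alpha and beta chains of the classical I-A molecule, which presents peptides at the cell surface. H2-Aa had a level of 4.32 in Mob1DKO and 3.70 in WT, from processed signals of 5826 and 2011. Its difference was 0.62, or 1.54-fold higher in Mob1DKO, against an SD of 0.061 and a scanner error of 0.20. Probe A_55_P1962747 of H2-Ab1 had levels of 7.03 and 6.36, a difference of 0.66 or 1.58-fold. The other H2-Ab1 probe, A_55_P2146560, had levels of 6.81 and 6.26, a difference of 0.55 or 1.47-fold. The pair of H2-Ab1 probes differed from each other by 0.11, against a technical SD of 0.086 for a gap between differences. H2-Aa lay between them, 0.04 below the first and 0.07 above the second. The alpha and beta chains of I-A were thus higher by amounts that could not be told apart at this technical error.

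H2-Eb1 encodes the beta chain of I-E, the second classical molecule. Its alpha chain gene, H2-Ea, is a pseudogene in the reference strain C57BL/6J and had no probe named here. H2-Eb1 had processed signals of 16489 in Mob1DKO and 8743 in WT, a ratio of 1.89. Since the 75th percentiles of the arrays stood in a ratio of 1.88, its levels were 5.82 and 5.82 and its difference 0.01. H2-Eb1 differed from H2-Aa by 0.62 and from the first H2-Ab1 probe by 0.66, against a technical SD of the gap of 0.086 and a scanner error of the gap of 0.29. Being a gap between probes of the same arrays, it does not depend on any scaling that moves all probes alike. It rests on 1 H2-Eb1 spot per array. H2-Eb2, the neighbouring beta chain gene outside the chosen set, had levels of −1.73 and −1.68, a difference of −0.05 against an SD of 0.36. Its probe is too faint to set a difference such as that of Cd74 (0.47) apart from 0.

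Cd74 encodes the invariant chain. Its processed signal was 40561 in Mob1DKO and 15556 in WT, and its levels were 7.12 and 6.65. The difference was 0.47, or 1.39-fold higher in Mob1DKO, against an SD of 0.061 and a scanner error of 0.20. Cd74 lay 0.15 below H2-Aa and 0.47 above H2-Eb1 in its difference. Among 312 genes measured on both arrays with a mean level within 1 of that of Cd74, the median difference was −0.03, and 19 genes had a larger one. The same count was 24 of 1895 for H2-Aa, 8 of 346 for the first H2-Ab1 probe and 139 of 3949 for H2-DMa. For H2-Eb1, 283 of 613 genes of like level had a larger difference.

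**Figure D2:**
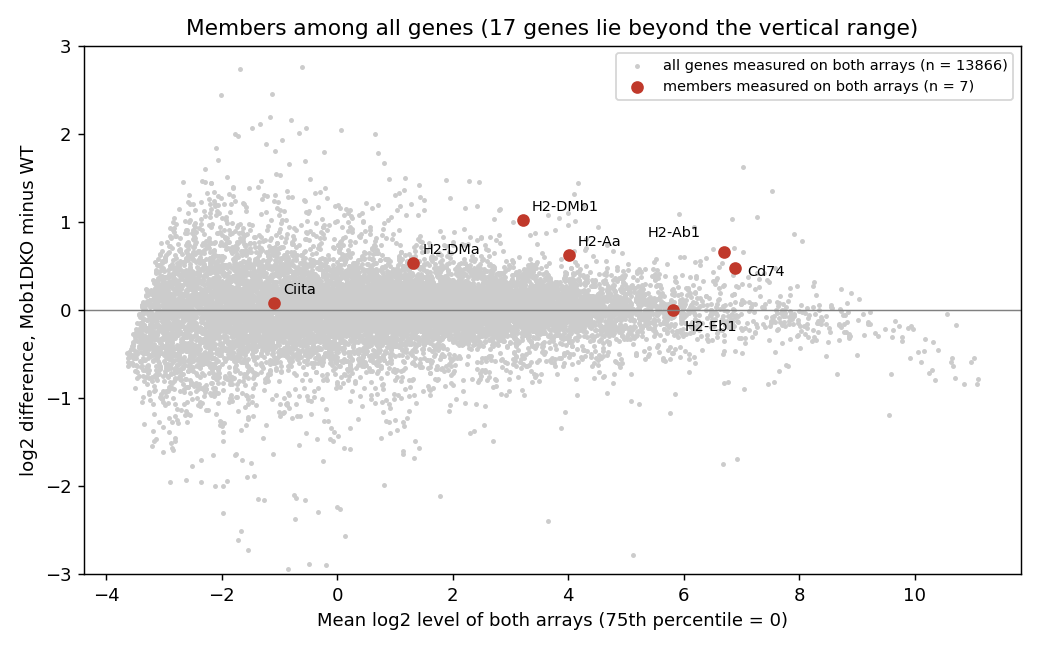
Difference (log2, Mob1DKO minus WT) against the mean log2 level of both arrays for 13866 genes measured on both (grey) and the 7 members among them (red). H2-DMb1, H2-Ab1, H2-Aa, H2-DMa and Cd74 lie in the upper part of the genes of like level, at 1.02 to 0.47, while H2-Eb1 and Ciita lie in the middle.

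H2-DMa and H2-DMb1 encode the alpha chain and a beta chain of the peptide-loading molecule H2-DM. H2-DMa had a level of 1.59 in Mob1DKO and 1.05 in WT, a difference of 0.53 or 1.45-fold, against an SD of 0.098. H2-DMb1 had levels of 3.72 and 2.70, from processed signals of 3846 and 1006. Its difference was 1.02, or 2.03-fold higher in Mob1DKO, against an SD of 0.061 and a scanner error of 0.20. H2-DMb1 thus lay 0.02 above the 2-fold line, less than either error, and 0.49 above H2-DMa, with a technical SD of that gap of 0.12. Its difference was also 0.40 above that of H2-Aa and 0.55 above that of Cd74, with a technical SD of 0.086 in both cases. The scanner error of each of these gaps, that to H2-DMa included, was larger, at 0.29. H2-DMb2, the other beta chain copy, had a level of −3.24 on the Mob1DKO array and was not well above background on the WT array. Against the lowest WT level well above background, −3.45, it was at least 1.16-fold higher in Mob1DKO. Because the copies are so alike in sequence, signal of H2-DMb1 RNA at the H2-DMb2 probe cannot be told apart from H2-DMb2 RNA.

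**Figure D3:**
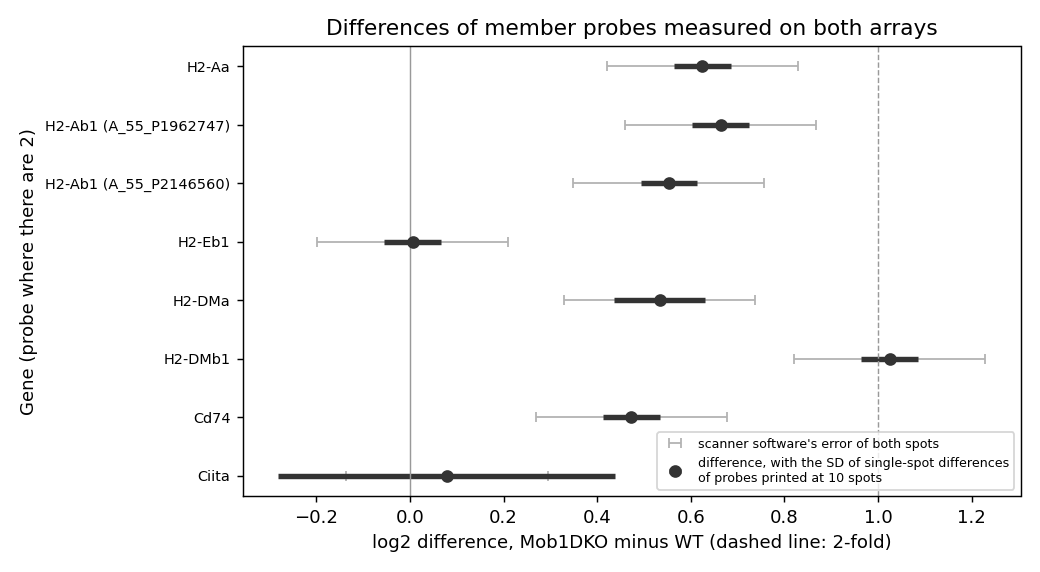
Difference of the 8 member probes measured on both arrays (log2, Mob1DKO minus WT); thick bars are the SD of single-spot differences at that level and thin capped bars the scanner software's error of both spots. The first 3 probes, H2-DMa, H2-DMb1 and Cd74 lie above 0 by more than either error, and H2-Eb1 and Ciita do not.

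H2-Oa and H2-Ob encode the chains of H2-DO, the inhibitor of H2-DM, which is best known from B cells and the thymus. H2-Oa was at background on both arrays (that is, well above it on neither), with processed signals of 4.0 and 3.0. Of the H2-Ob probes, A_55_P2082929 was at background on both. The second, A_66_P130916, passed the background flag in Mob1DKO, at a level of −3.70, and did not in WT, at −3.55, so that no fold can be given. H2-DO was thus at or near background in both samples. Of the genes that mark B cells, Ms4a1, Pax5 and Blk were at background on both arrays as well. The antigen receptor chain gene Cd79a was measured in Mob1DKO only, where it was at least 3.38-fold higher, and its partner Cd79b differed by 0.30.

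Ciita, the transactivator that sets class II transcription, had processed signals of 141 in Mob1DKO and 70.9 in WT. The levels were −1.05 and −1.13 and the difference 0.08, against an SD of 0.36 at this level. The probe is thus too faint to set a difference such as that of Cd74 apart from 0. The gaps between Ciita and the chain genes, such as 0.55 to H2-Aa and 0.39 to Cd74, had a technical SD of 0.36.

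Under the 2-fold rule, a gene was counted where its difference reached 1 and the brighter of its signals was well above background. Of the 9 member genes measured on at least 1 array, 2 were higher in Mob1DKO (H2-DMb1 and H2-DMb2) and 0 lower, where 3.79% of all 15099 such genes were higher and 2.91% lower. Of the 7 measured on both arrays, 1 was higher (H2-DMb1), where 1.25% of all genes were higher and 1.43% lower. The same rule over probes gave 2 of 10 measured member probes, where 5.81% of all measured probes were higher and 3.7% lower. H2-DMb2 entered the counts of genes and probes measured on at least 1 array by its Mob1DKO signal alone, with a bound of 1.16-fold. A single gene of 7 is too few to read against the background share.

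The 8 H2 genes lie in a row on chromosome 17, among other immune genes, so their neighbours were read in the gene order of assembly GRCm38.p6. This stretch, from H2-Oa to Btnl2, was chosen after the members' values were seen and holds 17 genes. Of these, 12 were measured on both arrays, 5 members and 7 others. All 5 members had a difference above 0, but that of H2-Eb1 (0.01) lay within its SD of 0.061. Of the 7 others, 6 differed above 0, where 52.2% of the genes of chromosome 17 did, and their median was 0.37. They include Tap1 (0.46) and Tap2 (0.32), the peptide pump of the class I pathway, and Psmb8 (0.38) and Psmb9 (0.09), immunoproteasome subunits. Brd2, a general chromatin reader, differed by 0.37 and Btnl2, a butyrophilin-like gene, by 0.52. The median of the 707 genes of chromosome 17 measured on both arrays was 0.02. Single neighbours at low levels, such as Tap1 and Btnl2, lie near the SD of 0.36 for faint probes.

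**Figure D4:**
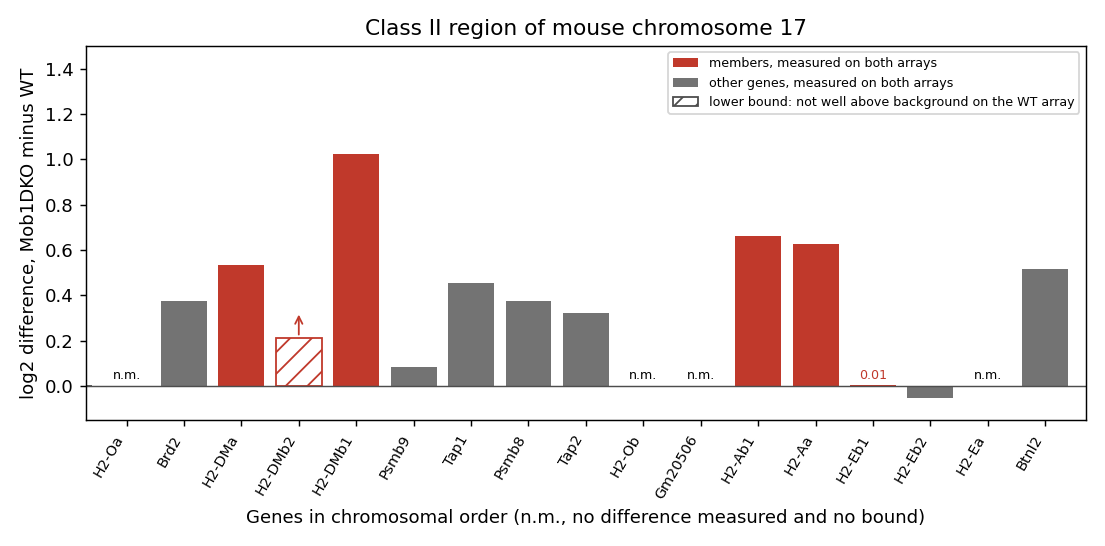
Difference (log2, Mob1DKO minus WT) of the 17 genes from H2-Oa to Btnl2 in their order on chromosome 17, members in red and others in grey; the hatched bar of H2-DMb2 is a lower bound. Members and other genes of the stretch lie mostly above 0, with H2-Eb1 and H2-Eb2 near 0.

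The factors that act with Ciita on the class II promoter had no common direction. Of 10 such genes, all measured on both arrays, none passed the 2-fold rule, 5 differed above 0 and 5 below, and the median was 0.03. The brightest were the coactivator gene Crebbp (−0.19) and Nfyc (−0.08), a subunit of the Y box factor NF-Y. The list ran from −0.56 for Rfxap, a subunit of the X box factor, to 0.94 for Nfya, another subunit of NF-Y. Of 12 genes that feed into Ciita, chiefly the interferon-gamma pathway, 10 were measured. None passed the rule at its brightest measured probe, and the median was −0.01. Irf1, an interferon-induced transcription factor, differed by 0.08 and the receptor gene Ifngr1 by −0.07. The cytokine gene Ifng was at background on both arrays. The second Irf1 probe passed the background flag in Mob1DKO only. Its difference of 1.26 passed the 2-fold rule, against an SD of 0.85 for probes this faint. Its Mob1DKO level, −3.48, was below the lowest WT level well above background, −3.45, so that no bound can be given.

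Genes that process antigen or remove class II from the surface also had a median near 0, at 0.03 over 11 measured of 13, and none passed the rule. Ctsh, a lysosomal cathepsin abundant in type 2 cells, differed by −0.08, and Marchf1, a ubiquitin ligase that removes class II from the surface, by 0.09. A second Marchf1 probe was at background on both arrays. Ctss, the protease that trims the invariant chain in many antigen-presenting cells, was at background on both. Of 13 class I presentation genes, all measured, none passed the rule, and the median was 0.09, or 0.03 over the 12 measured on both arrays. The class I heavy chain genes H2-K1 and H2-D1 differed by 0.18 and 0.60 and their light chain gene B2m by −0.11. A second H2-K1 probe differed by 0.38, and class I genes are so alike that their probes may share targets. Of 6 measured co-stimulation genes, 1 passed the rule. This was Cd86, on the Mob1DKO array only and at least 1.43-fold higher, and Cd80 and Icam1 differed by 0.58 and 0.22.

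The cell type of the samples was checked with marker lists. All 5 general epithelial genes and all 10 alveolar type 2 genes were measured on both arrays. The type 2 genes had a median difference of −0.21, with 8 of 10 below 0. The 108 genes measured on both arrays at mean levels of 8 or more, where several surfactant genes lie, had a median of −0.20. Sftpc, encoding surfactant protein C, differed by −0.78 and the lamellar body gene Lamp3 by 0.16. The type 2 median was −0.01 under quantile normalization, −0.06 under loess and 0.01 under a model-based background correction (normexp), so it has no settled direction. The class II median was 0.57, 0.59 and 0.53 under the same settings. The summed signal of the type 2 list, relative to the 75th percentile, was 4040 in Mob1DKO and 5711 in WT. Sftpc alone gave 1666 and 2868 of these sums. Such sums weight each probe by how brightly it binds.

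Markers of the leukocytes that carry class II were mostly at background. Of 7 pan-leukocyte genes, 5 were at background on both arrays, among them Ptprc, which encodes CD45. The summed signal of the others, Coro1a and Fcer1g, was 0.70 in Mob1DKO and 0.74 in WT. Of 7 dendritic cell genes, 3 were measured and 4 were at background on both arrays, among them Flt3 and Xcr1. The 3 measured had differences of 0.53 (Itgax, SD 0.098), 0.52 (Zbtb46, SD 0.36) and 0.22 (Ccr7, SD 0.36), with a summed signal of 4.96 in Mob1DKO against 3.46 in WT. Of these genes, Ccr7 lay within its technical SD, and Itgax alone gave 4.60 and 3.18 of the sums. A second Zbtb46 probe was at background on both arrays, and the median of this list changed sign under normexp, from 0.52 to −0.16. Of 8 macrophage genes, 4 were measured, 3 were at background on both arrays and 1, Cd68, had no probe named. The 4 measured had a median of −0.09 and a summed signal of 250.1 against 283. Lyz2, a lysozyme gene that type 2 cells express as well, gave 242 and 274 of these sums. Csf1r, a macrophage growth factor receptor gene, differed by −0.01 at its brightest probe, and by −0.07 (SD 0.36) and −0.41 (SD 0.098) at its other probes. Chil3 was 17.8-fold lower. The B cell genes Cd79a and Cd79b had a summed signal of 5.85 against 4.60, of which Cd79b gave 5.54 and 4.51. Of 6 T cell genes 2 were measured and 1, Trac, had no probe named. The summed signal was 9.98 against 13.8, of which the brightest Cd4 probe gave 6.70 and 10.2. A second Cd4 probe went the other way: it was measured in Mob1DKO only and at least 1.36-fold higher there. Class II is not characteristic of resting mouse T cells. The part of any of these cells in the class II difference was not tested. In RNA of a mixed sample, more cells of a type and more RNA per cell cannot be told apart.

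**Figure D5:**
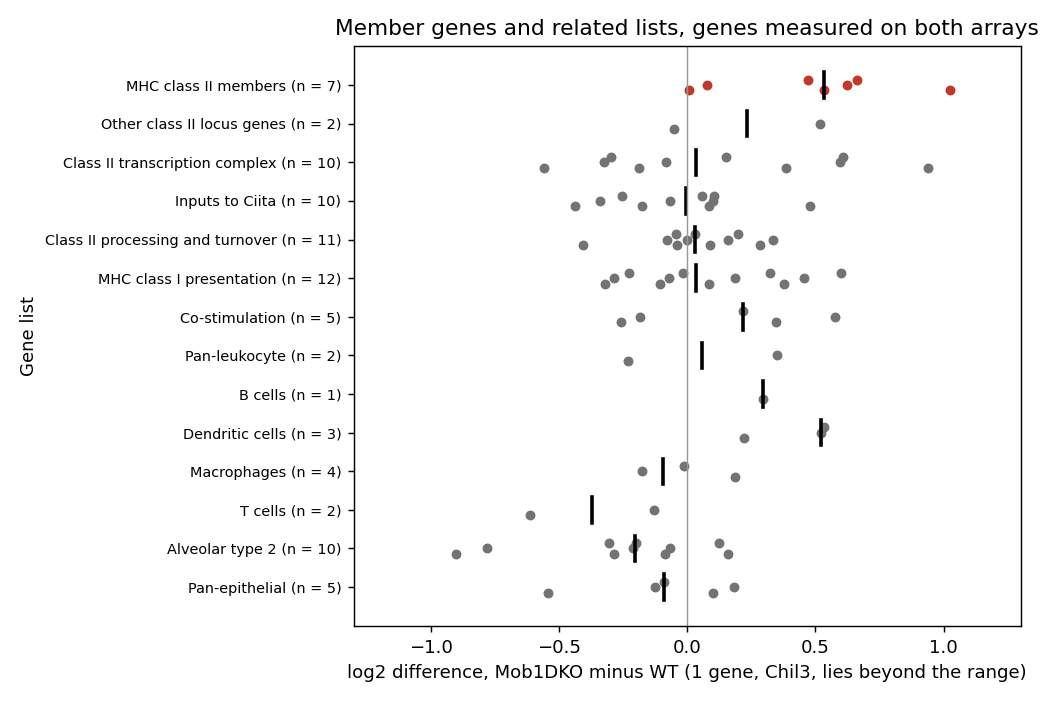
Difference (log2, Mob1DKO minus WT) of the genes measured on both arrays, by list; each point is a gene and the black line the list's median. The 7 members have a median of 0.53 and the 3 dendritic cell genes one of 0.52. The 1 B cell gene lies at 0.30, and the medians of the other class II locus genes and the co-stimulation genes at 0.23 and 0.22. The median is 0.03 for the promoter factors, −0.01 for the inputs to Ciita, 0.03 for processing genes and −0.21 for alveolar type 2 genes.

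The labels were checked with the targeted genes. Both Mob1b probes were lower on the Mob1DKO array, by 4.0-fold and 6.48-fold, whereas the Mob1a probe differed by 0.07, and the labels do not say where it lies relative to a deletion. Sex-linked genes also differed: Xist was 4.90-fold lower and Ddx3y at least 22.7-fold higher on the Mob1DKO array. Genotype, sex and animal cannot be told apart with 1 array each.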

How the data were processed

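The members and the gene lists were chosen with earlier results of these data known. Per the file headers, the authors' scanner files were made with Agilent Feature Extraction 10.7.1.1 on a grid of build mm9, while version 9.5.1.1 is named in the submitters' processing notes. The deposited intensity (processed signal) is background-subtracted and detrended within the array, and arrays were not scaled to each other. The series' deposited value table also holds linear intensity values, with the same distribution in both columns (median 27.3). How it was made is not stated in the labels or files, and its direction follows the labels. Its member differences nearly equalled those of quantile-normalized processed signals, with 0.65 for H2-Aa and 0.57 for Cd74 in both. Both arrays lie on 1 slide.

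Spots of a probe were averaged, control spots left out, and log2 signals taken minus each array's 75th percentile. Of 55681 probes, 58.6% (Mob1DKO) and 53.1% (WT) were well above background. Through RefSeq accessions on GRCm38.p6, 27235 probes were named (20660 genes) and 28446 were not, so further member probes among these are not analysed here. A gene took its brightest measured probe. Bounds use the lowest level well above background. No test between the groups was run; the code that applies the 2-fold rule was checked on simulated data. The alternatives, 14 in all, cover scaling, background correction, filters, probe rules and the deposited table; normexp (offset 50, limma 3.58.1) used the median spot signal, since the mean is not analysed here. Named genes are all members, and of each pathway list those past 2-fold and the 2 brightest measured; cell type markers and others (such as Rfxap, Nfya, B2m, Tap1, Brd2) were named after their values were seen.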

Additional observations from a re-analysis of the deposited data

How the results depend on the processing

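Relative to the median of all genes, H2-Aa, H2-Ab1, H2-DMa and H2-DMb1 were higher in Mob1DKO under all 14 other settings and Cd74 under all 13 that gave it a value. Scaling that moves all probes alike cannot change a value on this scale. Filters on genes leave a gene's own difference as it was, and the deposited table gave nearly the same values as quantile normalization. Quantile normalization, loess and normexp can move single genes, and there the members' median lay 0.55, 0.56 and 0.53 above that of all genes. The unadjusted difference of H2-DMb1 was 1.01 or more in each setting. Relative to the median of all genes its lowest was 0.99, under loess. H2-Eb1 lay between −0.02 and 0.17 and Ciita between −0.15 and 0.13 on that scale, on both sides of 0. Without scaling, the median of all genes moved to 0.93, the median of the members to 1.44 (0.51 above all genes, as before), and 6 member genes and 7 member probes passed 2-fold. With normexp, with the filter on both arrays and with a floor at the lowest level well above background, the count was 1 gene and 1 probe in place of 2, because H2-DMb2 was no longer counted; it differed by −0.11 under normexp, and the cause was not tested. Values under 2-fold also changed sign under normexp: Ciita to −0.14 and the medians of the dendritic cell, co-stimulation, pan-leukocyte, type 2, general epithelial and Ciita input lists to −0.16, −0.04, −0.28, 0.01, 0.06 and 0.05. Scaling on housekeeping genes moved the median of all genes to 0.19 and that of the members to 0.70. Leaving out flagged spots removed Cd74 and Ciita, whose WT background was flagged. No paired analysis was possible because each group has 1 array, and no array can be left out. Signal over background limits H2-Oa, H2-Ob, H2-DMb2 and Ciita.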
